A study of Homo sapiens with 12 samples.

Results

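The genes described here encode the Mediator complex, 33 subunits and kinase module paralogues chosen by gene symbol, out of 57820 genes in the count table. All 33 were found in the table, and all 33 passed the filter on low counts, which left 21270 genes. The RNA came from the human cell lines JVM3, HG3 and MEC1, which the labels give as chronic lymphocytic leukaemia, a malignancy of mature B lymphocytes. In each line, cells labelled MUT carried the U1 g.3A>C change and cells labelled WT did not. The 6 groups (JVM3, HG3 and MEC1, each mutant and wild type) were sequenced as 2 technical replicates, which makes 12 libraries, and the labels do not state how the mutant U1 was brought into the cells. The question was what an altered U1 changes in splicing and RNA levels, with wild-type cells of the same line as the comparison.

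Mediator is a large complex that carries signals from DNA-bound transcription factors to RNA polymerase II. Its head and middle modules contact the polymerase, its tail binds activators, MED14 is the backbone that holds these modules together, and a separable kinase module (CDK8 or CDK19, cyclin C, MED12 and MED13 or their paralogues) regulates the core. The U1 small nuclear RNA finds introns by base pairing of its 5′ end with the donor, the 5′ splice site at which an intron starts. Position 3 of U1 faces base 6 of the intron, so its usual A pairs with U there, written T in DNA, and a C at position 3 would pair with G.

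Libraries held 29880079 to 39716818 counts in genes, and the 33 genes together took 1312 to 1511 CPM (counts scaled to library size) in group means of mutant cells and 1345 to 1397 in those of wild-type cells. Markers of B cells were present in all libraries, with a lower sum in mutant cells of each line and no overlap. They summed to 1615 to 1628 CPM in mutant and 1675 to 1709 CPM in wild-type JVM3, 1946 to 2016 CPM against 2040 to 2083 CPM in HG3, and 1873 to 1888 CPM against 2080 to 2090 CPM in MEC1. Of 3 markers of chronic lymphocytic leukaemia, FCER2 was present in all lines, but CD5 and ROR1 were near 0 outside HG3. Over mutant and wild-type libraries, CD5 stood at 40.3 to 42.1 CPM in HG3, 0.028 to 0.474 CPM in JVM3 and 0.079 to 0.115 CPM in MEC1. ROR1 stood at 16.6 to 18.5 CPM in HG3, 0.453 to 0.705 CPM in JVM3 and 0.201 to 0.345 CPM in MEC1. The 3 T cell markers summed to at most 0.816 CPM in mutant and 0.747 CPM in wild-type libraries. Fibroblast markers summed to 1.89 to 2.14 CPM in mutant and 2.43 to 2.65 CPM in wild-type JVM3, 4.64 to 4.96 CPM against 3.796 to 3.952 CPM in HG3, and 2.36 to 2.82 CPM against 0.971 to 1.12 CPM in MEC1. Myeloid, epithelial and erythroid markers each summed to at most 3.25 CPM in mutant and 3.33 CPM in wild-type libraries. Reads outside annotated features took 18.4% (mutant) and 21.6% (wild type) of entries in JVM3, 24.3% and 22.3% in HG3, and 20% and 18.3% in MEC1. The part of these differences in the results was not tested. In bulk RNA, fewer cells that express a gene and less RNA per cell cannot be told apart.

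The sequences below are the splice sites on which the Mediator results turn. They were read from GENCODE 29 transcripts, built on GRCh38, which run through these sites, and the sites were placed by the spacing of the junctions in the deposited hg19 table. Each donor is shown with 12 exon bases in lower case followed by the first 6 intron bases in capitals, all 5′ to 3′ on the strand of the gene.
MED14 annotated donor: gaaaaatgtgcgGTGAGTtaaa
MED14 donor of the added exon: agacatcattacGTGAGGagac
MED1 donor inside the coding exon: tagcagcccaggGTATGGcatg
MED21 donor inside the coding exon: agacaagaagtgGTACCCatag
All 4 have GT as the first intron bases. At donors of annotated introns, such as the annotated MED14 donor and the MED21 donor, this follows from the annotation. It is therefore a limited check of the placement. Base 6 of the intron is T at the annotated MED14 donor, G at the donor of the added MED14 exon and at the internal MED1 donor, and C at the internal MED21 donor. The added exon of MED14 is shown in capitals, with 20 intron bases before it and 10 after it.
MED14 added exon: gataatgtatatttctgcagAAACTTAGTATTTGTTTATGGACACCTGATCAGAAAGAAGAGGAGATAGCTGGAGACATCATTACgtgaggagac
These are descriptions of the letters at 4 donors, and no count over all donors was made.

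Splice junctions were deposited as 1 column of reads per line and U1 status, with 15537369 to 17917160 reads each. Of the 33 genes, 30 were placed in that table, and junctions of MED9, MED29 and MED12L were not analysed here.

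MED14 gained an exon in mutant cells of all 3 lines. The exon is 65 bases long, at chrX:40585783-40585847 (hg19, minus strand), inside the 12035-base intron after exon 3 of the coding transcript MED14-201, and its first base lies 151 bases past the annotated donor. The junction into it (start 40585847, end 40585998) was not in the annotation. It had 38, 79 and 26 reads in mutant JVM3, HG3 and MEC1, against 0 reads in each of the 3 wild-type columns. The junction out of it (start 40573962, end 40585783) had 6, 9 and 5 reads in mutant JVM3, HG3 and MEC1, and again 0 in all 3 wild-type columns. Of the 458 junctions found in Mediator genes these 2 were the ones with at least 3 reads in every mutant column and 0 in every wild-type column, and there were 0 with the opposite pattern. Across the 170723 junctions of the table, 163 had the mutant pattern and 25 the wild-type one.

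Of reads leaving the annotated MED14 donor, 31.7% (38 of 120, 95% Wilson interval 24 to 40.4) went to the added exon in mutant JVM3, 69.3% (79 of 114, 60.3 to 77) in mutant HG3 and 45.6% (26 of 57, 33.4 to 58.4) in mutant MEC1. The wild-type columns had 0 of 126, 0 of 109 and 0 of 101 reads, which allow shares of up to 2.38%, 2.75% and 2.97%. The groups did not overlap, and the mean change was 48.9 points (edgeR diffSpliceDGE by shared donor, adjusted p = 3.42e-05). Here and below, how many of all junctions have groups without overlap was not counted. The annotated junction over the whole intron (start 40573962, end 40585998) had 82, 35 and 31 reads in mutant JVM3, HG3 and MEC1, against 126, 109 and 101 in wild-type cells. Its share of donor reads fell by the same 48.9 points (adjusted p = 0.0231), a call that was lost without HG3 (adjusted p = 0.492) or without MEC1 (adjusted p = 0.0822).

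**Figure D1:**
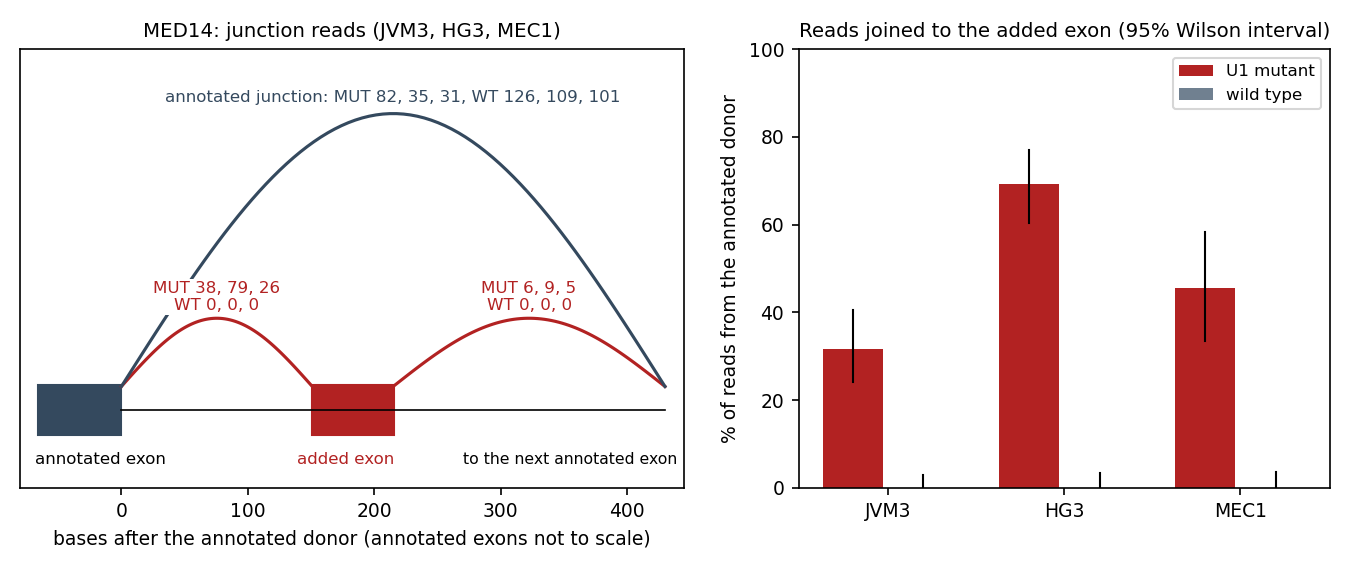
Left, the MED14 intron with distance in bases from the annotated donor and reads per column for each junction (JVM3, HG3, MEC1). Right, the percentage of reads from that donor that join the added exon, with 95% Wilson intervals: 31.7%, 69.3% and 45.6% in mutant columns and 0 in all 3 wild-type columns.

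At the far end of the intron, the added exon supplied 5.94%, 17.0% and 12.8% of the reads that entered the next exon in mutant JVM3, HG3 and MEC1, and 0 of 134, 0 of 115 and 0 of 102 reads in wild-type cells, which allow up to 2.24%, 2.61% and 2.94%. This mean change of 11.9 points was called by shared acceptor (adjusted p = 0.000563), on 20 junction reads in all, the minimum for a test, so with a minimum of 50 reads or any line left out it had too few to be tested. The annotated junction's share of the same acceptor changed by -20.4 points, which was not called (adjusted p = 0.783). Fewer reads were seen leaving the added exon than entering it. The exon length leaves a remainder of 2 when divided by 3. The 348 coding bases before the donor, 7.98% of the 4362 of MED14-201, were read in frame through the added exon, and the first stop codon, TGA, began 66 bases past the donor, at base 2 of the next exon. If the RNA ran on past the added exon into the intron, a stop codon began at the same distance of 66 bases.

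MED14 RNA (ENSG00000180182.6, chromosome X), the backbone of the complex, fell in all 3 lines. It stood at 63.2 and 66.9 CPM in the 2 mutant JVM3 libraries, against 82.3 and 83.8 CPM in wild-type JVM3. In HG3 it stood at 75.3 and 77.3 CPM in mutant and 95.8 and 94.0 CPM in wild-type libraries. In MEC1 it stood at 32.9 and 35.9 CPM in mutant and 53.6 and 56.7 CPM in wild-type libraries. Within each line the mutant libraries lay below the wild-type ones with no overlap. In either direction, 59.2% of all genes tested had no overlap in JVM3, 65.8% in HG3 and 61.7% in MEC1. JVM3 had a log2 change of -0.33, HG3 of -0.31 and MEC1 of -0.74, and the change across lines was -0.46 ± 0.14 (SE of the 3 lines, edgeR adjusted p = 0.0443). Among 18 MED14 junctions tested by level, 5 annotated ones fell and the 2 of the added exon rose, where 3.38% of all junctions fell and 3.1% rose. Such counts, here and below, are not independent of the change in the gene's RNA.

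Across lines, 1 of 33 Mediator genes rose and 2 fell in mutant cells (edgeR quasi-likelihood test on replicates summed to 3 mutant and 3 wild-type libraries, line as a block, Benjamini-Hochberg adjusted p under 0.05). That is 3 of 33, where 3.69% of all genes tested were called (1.83% rose and 1.86% fell), so the share of Mediator genes rests on very few genes. The median log2 change was 0.04 over the 33 genes and -0.01 over all genes tested, and 15 of the 33 had an unadjusted p under 0.05. With 2 lines left in each group the count was 2 without JVM3, 0 without HG3 and 0 without MEC1. The calls of MED14 and MED17 were lost whichever line was left out, and that of MED16 without HG3 or without MEC1. The 2 genes called without JVM3 were MED16 and MED13L. The count was 8 with no filter on low counts. Besides MED14, the called genes were MED16 and MED17.

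MED16 (ENSG00000175221.10, chromosome 19), a tail subunit, had the largest fall. It stood at 23.6 and 24.5 CPM in mutant and 32.2 and 31.2 CPM in wild-type JVM3 libraries. In HG3 it stood at 14.2 and 15.6 CPM in mutant and 34.4 and 30.6 CPM in wild-type libraries, and in MEC1 at 18.5 and 17.4 CPM in mutant and 30.6 and 28.5 CPM in wild-type libraries. Within each line the mutant libraries lay below the wild-type ones. In either direction, 59.2%, 65.8% and 61.7% of all genes had no overlap in JVM3, HG3 and MEC1. The log2 change was -0.76 ± 0.22 across lines (edgeR adjusted p = 0.032), with -0.38 for JVM3, -1.12 for HG3 and -0.78 for MEC1. Of 11 MED16 junctions tested by level, 4 fell and 0 rose, where 3.38% of all junctions fell and 3.1% rose.

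MED16 also showed reads of an exon that is not in the annotation, in an intron of 761 bases on the minus strand. The junction into it (chromosome 19, start 885599, end 885770) had 4, 5 and 10 reads in mutant JVM3, HG3 and MEC1, against 0, 1 and 0 in wild-type cells. The junction out of it (start 885008, end 885485) had 5, 6 and 6 reads in mutant and 0, 0 and 1 in wild-type columns, under the minimum of 20 reads for a test. Together they bound an exon of 115 bases at chr19:885485-885599 (hg19), a length that leaves a remainder of 1 when divided by 3. It took 5.06%, 16.1% and 16.7% of the reads from its donor in mutant JVM3, HG3 and MEC1, and 0 of 90, 1 of 99 and 0 of 109 reads in wild-type cells. The mean change of 12.3 points was called by shared donor (adjusted p = 0.0399), but with a minimum of 50 reads or any line left out the junction had too few reads to be tested. The annotated junction over this intron had 75, 26 and 50 reads in mutant and 90, 98 and 109 reads in wild-type columns, a fall of its level (log2 change -1.14, edgeR adjusted p = 0.00326).

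MED17 (ENSG00000042429.6, chromosome 11), a scaffold subunit of the head, rose. It stood at 61.7 and 60.9 CPM in mutant and 49.5 and 51.6 CPM in wild-type JVM3 libraries. In HG3 it stood at 68.9 and 69.0 CPM in mutant and 48.0 and 52.4 CPM in wild-type libraries, and in MEC1 at 49.7 and 50.3 CPM in mutant and 35.5 and 36.8 CPM in wild-type libraries. Within each line the mutant libraries were the higher, where 59.2%, 65.8% and 61.7% of all genes had no overlap in JVM3, HG3 and MEC1. MED17 was lower in MEC1 than in the other lines in both states. The log2 change was 0.39 ± 0.05 across lines (edgeR adjusted p = 0.0398). Of 11 MED17 junctions tested by level, 7 rose and 0 fell, where 3.1% of all junctions rose and 3.38% fell. The gene lies beside TAF1D, and whether reads were counted by strand is not stated.

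**Figure D2:**
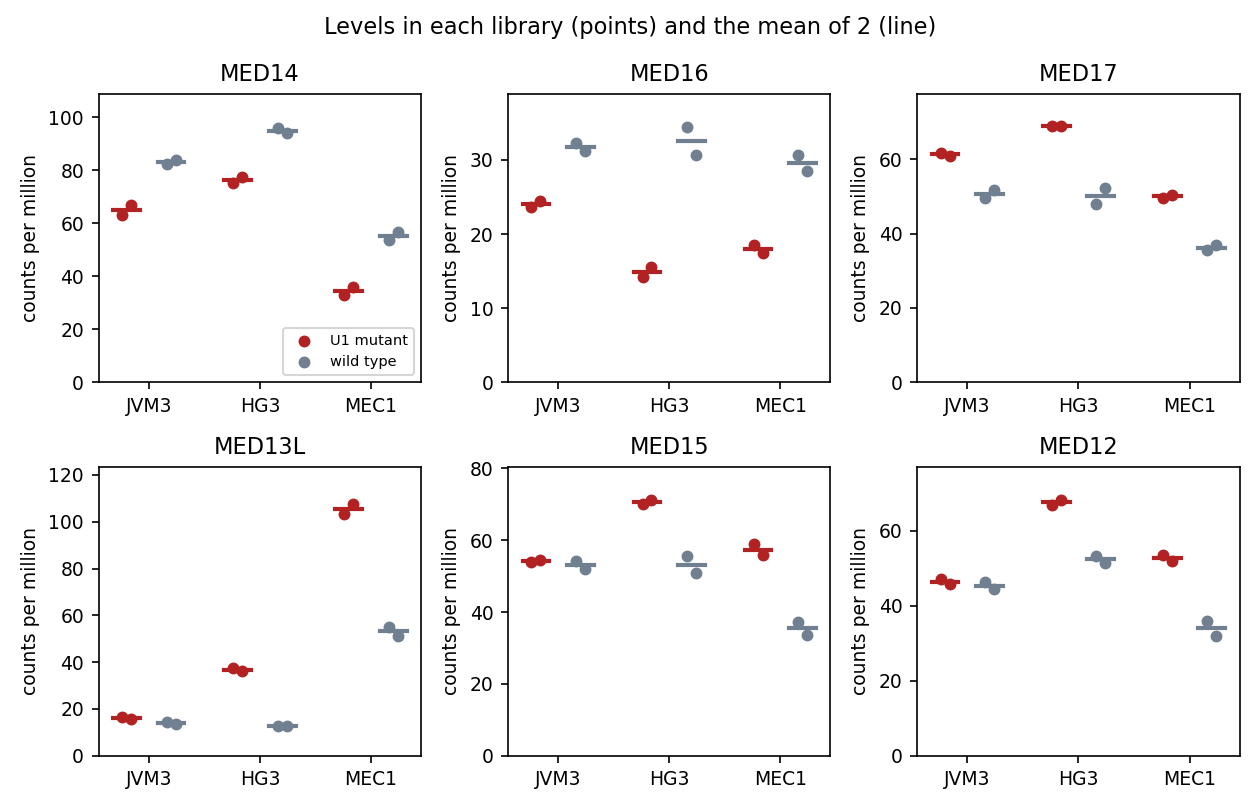
Levels in CPM of 6 Mediator genes in each library, with the 2 mutant libraries (red) left of the 2 wild-type libraries (grey) in each line and a line at their mean. MED14 and MED16 lie lower and MED17 higher in mutant cells of all 3 lines, while MED15 and MED12 differ in HG3 and MEC1 and overlap or nearly overlap in JVM3.

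Within single lines, where p-values measure the spread between technical replicates only, many more genes passed the test. In JVM3, 9 of 33 Mediator genes rose and 4 fell, where 22.4% of all genes were called (10.4% rose and 12% fell). In HG3, 13 rose and 10 fell, against 38.3% of all genes called (18.7% and 19.6%). Among the 13 was MED12L, called on 9 counts in mutant and 0 in wild-type HG3. That gene passed the filter on low counts through its MEC1 libraries. In MEC1, 13 rose and 6 fell, against 36.6% of all genes (18% and 18.6%). In total 29 of the 33 were called in at least 1 line, MED12L through HG3 alone, and MED4, MED21, MED31 and MED13 in none. There were 8 called in all 3 lines with 1 sign, where 8.99% of all genes were: MED17, MED9, MED10, MED26 and MED13L rose, and MED14, MED16 and MED28 fell.

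The middle module had no member called as falling in any single line. Its negative log2 changes, none of them called, numbered 3 for JVM3, 2 for HG3 and 3 for MEC1. Calls of a rise were made for 4 of its 9 genes in JVM3, 6 in HG3 and 4 in MEC1. Among all genes tested, JVM3 had 10.4% called as rising and 12% as falling. HG3 had 18.7% and 19.6%, and MEC1 had 18% and 18.6%. These calls rest on technical replicates, and whether the module differs from all genes was not tested. This module's genes had a median log2 change across lines of 0.12, and none of the 9 was called across lines. MED26, which brings elongation factors to the polymerase, had a JVM3 log2 change of 0.19, with 0.38 in HG3 and 0.41 in MEC1 (across lines 0.32 ± 0.07, adjusted p = 0.0958). MED9 and MED10, small subunits of the same module, changed by 0.28 ± 0.03 and 0.25 ± 0.04 across lines on the log2 scale. MED31 was the lowest of the module at -0.11 ± 0.12, with 7.08 and 6.75 CPM in mutant and 7.42 and 8.36 CPM in wild-type JVM3 libraries. It had 6.04 and 6.55 CPM in mutant and 7.23 and 7.94 CPM in wild-type HG3 libraries. In MEC1 its mutant libraries, at 4.71 and 5.80 CPM, overlapped the wild-type ones, at 3.94 and 5.22 CPM. The log2 changes were -0.17 for JVM3, -0.26 for HG3 and 0.14 for MEC1.

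Head and tail genes were called both ways. Their counts within lines also rest on technical replicates and stand beside the shares of all genes given above. Of the 7 head genes, 2 rose and 0 fell in JVM3, 2 rose and 3 fell in HG3, and 3 rose and 2 fell in MEC1. MED20, which pairs with MED18 in the head, was the lowest of the module at -0.26 ± 0.10 across lines (adjusted p = 0.2), with a log2 change of -0.44 in MEC1. Of the 9 tail genes, 2 rose and 2 fell in JVM3, 2 rose and 4 fell in HG3, and 3 rose and 2 fell in MEC1. MED28 fell in each line, by 0.24 for JVM3, 0.31 for HG3 and 0.39 for MEC1 on the log2 scale, but missed the threshold across lines (-0.32 ± 0.04, adjusted p = 0.0545). It was called with DESeq2 (adjusted p = 0.00961) and with no filter on low counts (edgeR adjusted p = 0.00855).

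MED15, the tail subunit that binds several activators, was highest of the tail in its change. It stood at 54.1 and 54.5 CPM in mutant and 54.2 and 52.1 CPM in wild-type JVM3 libraries, which overlapped. In HG3 it stood at 70 and 71.2 CPM in mutant and 55.6 and 50.8 CPM in wild-type libraries, and in MEC1 at 58.9 and 55.9 CPM in mutant and 37.3 and 33.6 CPM in wild-type libraries. Its log2 change was 0.06 for JVM3, 0.41 for HG3 and 0.63 for MEC1, and 0.36 ± 0.17 across lines (adjusted p = 0.109). MED25, another activator-binding subunit, had 34.7 and 33.9 CPM in mutant and 24.8 and 20.3 CPM in wild-type MEC1 libraries (log2 change 0.54). In mutant JVM3 it had 18.7 and 18.5 CPM, against 19.2 and 18.9 CPM in wild-type JVM3. In mutant HG3 it had 19.8 and 22.2 CPM, against 20.9 and 20.2 CPM in wild-type HG3.

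**Figure D3:**
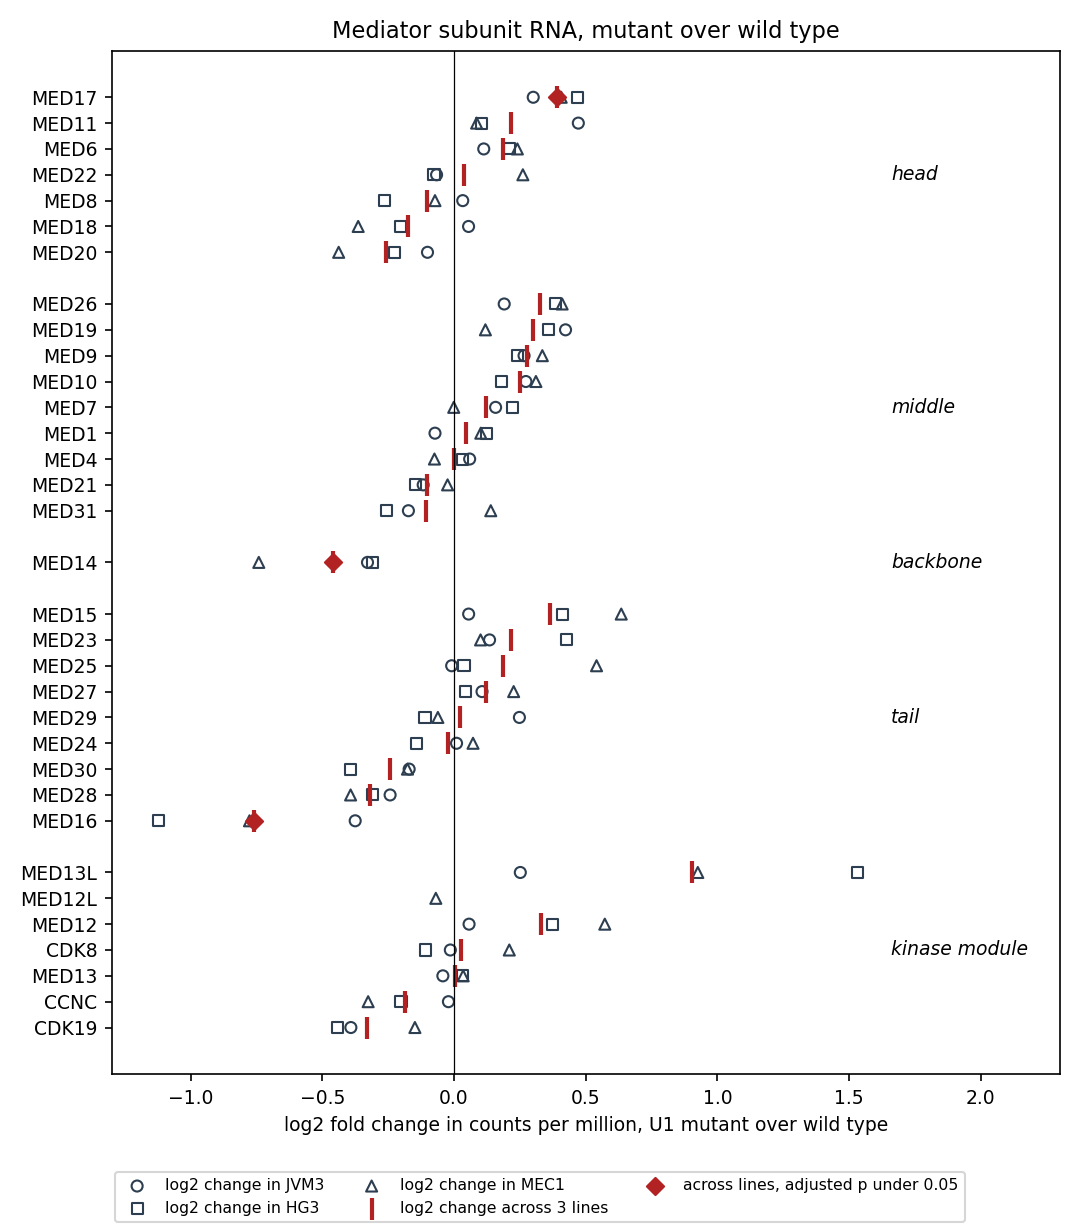
Log2 change of each Mediator gene, mutant over wild type, in JVM3 (circle), HG3 (square) and MEC1 (triangle), with the value across lines as a red bar and called genes as red diamonds, by module. MED14 and MED16 lie left of 0 and MED17 right of 0 in all 3 lines. MED12L is shown for MEC1 alone, since it had 9 or fewer counts per group in the other lines.

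In the kinase module the paralogues differed from each other. MED13L, a paralogue of the MED13 subunit that links the kinase to the core, stood at 37.4 and 36.2 CPM in mutant and 12.8 and 12.7 CPM in wild-type HG3 libraries. In MEC1 it stood at 103 and 107 CPM in mutant and 55.0 and 51.1 CPM in wild-type libraries, and in JVM3 at 16.7 and 15.8 CPM in mutant and 14.5 and 13.3 CPM in wild-type libraries. The mutant libraries were higher in each line with no overlap, where 59.2%, 65.8% and 61.7% of all genes had none in JVM3, HG3 and MEC1. The log2 changes were 0.25 for JVM3, 1.53 for HG3 and 0.93 for MEC1, the largest across lines of the 33 genes at 0.90 ± 0.37, which was not called (adjusted p = 0.0921). It was called with DESeq2 (adjusted p = 0.00365), with no filter on low counts (adjusted p = 2.45e-11) and without JVM3 (edgeR adjusted p = 0.0278). Of 18 MED13L junctions tested by level, 6 rose and 0 fell, where 3.1% of all junctions rose and 3.38% fell. MED13 itself had 223 and 223 CPM in mutant and 236 and 231 CPM in wild-type JVM3 libraries, with 208 and 208 CPM against 201 and 208 CPM in HG3 and 218 and 231 CPM against 205 and 215 CPM in MEC1. Its log2 change was 0.01 ± 0.03 across lines (adjusted p = 0.982).

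MED12, the subunit that activates the kinase and that is mutated in some cases of this leukaemia, had 66.9 and 68.1 CPM in mutant and 53.3 and 51.3 CPM in wild-type HG3 libraries. In MEC1 it had 53.4 and 51.8 CPM in mutant and 36.0 and 31.9 CPM in wild-type libraries, and in JVM3 47.1 and 45.6 CPM in mutant and 46.3 and 44.3 CPM in wild-type libraries, which overlapped. Its log2 changes of 0.06 for JVM3, 0.37 for HG3 and 0.57 for MEC1 gave 0.33 ± 0.15 across lines (adjusted p = 0.118). MED12L, its paralogue, was near 0 outside MEC1. The summed counts were 5 in mutant and 1 in wild-type JVM3 (ratio 4.39, exact binomial 95% interval 0.491 to 207). In HG3 there were 9 in mutant and 0 in wild-type cells, a ratio of 3.02 with the 0 set to a floor of 3 counts over the group. MED12L passed the test in HG3 on these counts. In MEC1 there were 412 counts in mutant and 392 in wild-type cells, a ratio of 0.993 (0.862 to 1.14). These intervals cover counting error only, and the floor leaves out the counting error of the 9. Other genes lie within the introns of MED12L.

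The kinases CDK19 and CDK8, which are alternatives to each other in the module, were not called across lines. CDK19 had 23.2 and 23.0 CPM in mutant and 30.6 and 30.9 CPM in wild-type JVM3 libraries. In HG3 it had 27.7 and 29.3 CPM in mutant and 37.9 and 40.0 CPM in wild-type libraries, and in MEC1 18.5 and 19.9 CPM in mutant and 20.4 and 20.4 CPM in wild-type libraries. It fell in JVM3 and HG3 (log2 changes -0.39 and -0.44), with -0.33 ± 0.09 across lines (adjusted p = 0.0912). CDK8 had 24.9 and 26.9 CPM in mutant and 27.0 and 26.2 CPM in wild-type JVM3 libraries, 26.0 and 26.7 CPM against 27.8 and 29.3 CPM in HG3, and 38.6 and 39.6 CPM against 32.1 and 32.7 CPM in MEC1. It rose in MEC1 (log2 change 0.21), and stood at 0.03 ± 0.09 across lines. Cyclin C, the product of CCNC, fell in HG3 and MEC1 by 0.20 and 0.33 on the log2 scale.

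**Figure D4:**
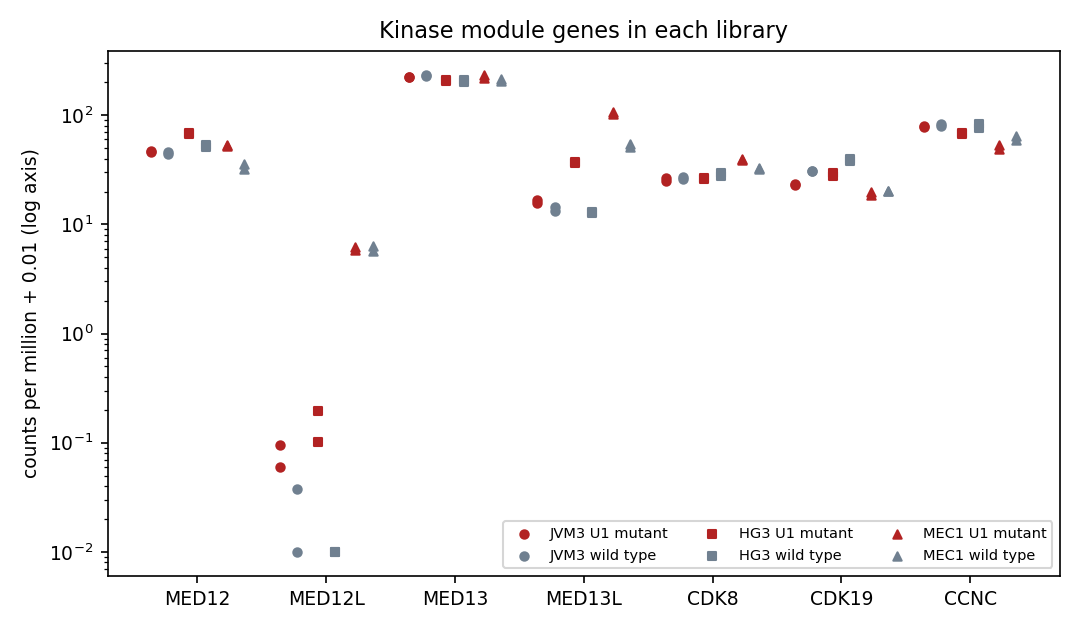
Levels in CPM plus 0.01, on a log axis, of the 7 kinase module genes in each library, with mutant (red) left of wild type (grey) for JVM3 (circles), HG3 (squares) and MEC1 (triangles). MED13L and MED12L stand highest in MEC1, and MED13L lies higher in mutant than in wild-type libraries of each line.

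A skipped exon of CDK8 gave the other call by acceptor. An annotated junction that skips an exon (chromosome 13, plus strand, start 26928017, end 26959348) took 19.6%, 10.1% and 11.8% of the reads that entered its acceptor in mutant JVM3, HG3 and MEC1, against 2.25%, 5.43% and 2.00% in wild-type cells. These were 19 of 97, 8 of 79 and 15 of 127 reads in mutant columns and 2 of 89, 5 of 92 and 2 of 100 reads in wild-type columns. The groups did not overlap, though the Wilson intervals of HG3, 5.22 to 18.7 in mutant and 2.34 to 12.1 in wild-type cells, did. The mean change of 10.6 points was called (edgeR diffSpliceDGE by shared acceptor, adjusted p = 0.0316), but the call was lost with limma (adjusted p = 0.0621), without JVM3 (adjusted p = 0.348) and without MEC1 (adjusted p = 0.209). It was 1 of 2 calls among 77 Mediator junctions of 21 genes tested by shared acceptor, the other being the junction out of the added MED14 exon, where 2.78% of all junctions tested were called. By shared donor, 3 of 94 were called, where 1.8% of all were.

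MED7, a middle subunit, had the largest mean change in acceptor share among the tested Mediator junctions outside MED14. Of its 2 annotated starts, the junction from the nearer donor (chromosome 5, start 156566459, end 156569412) took 47.9%, 26.6% and 40.2% of acceptor reads in mutant JVM3, HG3 and MEC1, against 21.8%, 10.7% and 23.2% in wild-type cells. The mutant columns were all higher, by a mean of 19.6 points, but the share was not called (adjusted p = 0.102). Its level was (34, 21 and 41 reads in mutant and 12, 6 and 16 reads in wild-type columns, log2 change 1.38, edgeR adjusted p = 0.0143), and that call was lost without HG3. A MED4 junction (chromosome 13, start 48627627, end 48651289) had a mean change of -13.6 points that rested on 14 to 36 acceptor reads per column and did not pass (adjusted p = 1). Its partner from a donor at 48653980, which is not annotated, changed by the same 13.6 points upwards and was not called either.

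MED1, the middle subunit that binds nuclear receptors, was spliced from a donor inside its long last coding exon more often in mutant cells. This donor (chromosome 17, minus strand, position 37566834 in hg19) lies in exon 17 of the 17 exons of MED1-201, and it uses the sequence with G at intron base 6 shown above. Its main junction, to an acceptor at 37561462 that is not annotated, had 63, 83 and 162 reads in mutant JVM3, HG3 and MEC1, against 15, 7 and 11 in wild-type cells (log2 change 3.04, edgeR adjusted p = 2.18e-06). A junction to an annotated acceptor 99 bases away, at 37561561, had 14, 13 and 39 reads in mutant and 4, 4 and 1 reads in wild-type columns (log2 change 2.6, adjusted p = 0.00746), a call lost without MEC1 (adjusted p = 0.195). An annotated MED1 junction that was found here uses this acceptor, so the donor is not to be taken as a new site. The call of the junction to 37561462 held in each pair of lines, with log2 changes of 2.63 to 3.67.

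Other MED1 junctions were also higher in mutant cells, so the donor was set against them. Reads from it came to 38.6%, 36.7% and 58.3% of the median of 10 other annotated MED1 junctions in mutant JVM3, HG3 and MEC1, and to 14.1%, 6.75% and 6.65% in wild-type cells, or 44.6 ± 12% and 9.17 ± 4.29% (SD, n = 3 lines each). How many of all junctions differ in this way was not counted. No junction that goes on through the exon competes with this donor, so its use could not be tested as a share of reads. Between its 2 tested junctions, the one to 37561462 took 83.0% of the donor's reads in mutant and 78.1% in wild-type columns on average, a change of 4.87 points that was not called (edgeR diffSpliceDGE by shared donor, adjusted p = 1). Of 18 MED1 junctions tested by level 11 rose and 0 fell, with a median log2 change of 0.58, whereas the gene's count did not pass the test (log2 change 0.05 ± 0.06, adjusted p = 0.787). The donor leaves out the last 3980 of the 5844 bases of MED1-201, or 68.1%, and follows 1640 of its 4743 coding bases, or 34.6%. Read on in frame from the acceptor at 37561462, the sequence of transcript MED1-202 gave a stop codon 208 bases past the junction. In all, 43 of 268 Mediator junctions tested by level were called, 32 rose and 11 fell, where 6.49% of all junctions were called (3.1% rose and 3.38% fell).

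MED21, another middle subunit, showed a like pattern with fewer reads. A donor inside exon 4 of 4 of MED21-201 (chromosome 12, plus strand, position 27181362), whose intron base 6 is C, lies after 403 of its 432 coding bases. The annotated junction from it to 27183091 had 12, 27 and 20 reads in mutant JVM3, HG3 and MEC1, against 5, 3 and 6 in wild-type cells (log2 change 1.91, edgeR adjusted p = 0.0228). That came to 7.55%, 28.4% and 12.3% of the reads into the same exon in mutant columns and 2.96%, 1.96% and 3.68% in wild-type columns. The call of the junction's level was lost without HG3 (adjusted p = 0.312). Further along the annotated span of the gene, junctions from 27185614 to 27199091 and from 27212393 to 27217209, neither of them annotated, also rose. The first had 11, 21 and 14 reads in mutant and 2, 5 and 2 reads in wild-type columns, a call lost without HG3 (adjusted p = 0.123) or without MEC1 (adjusted p = 0.0615). The second had 19, 20 and 16 reads in mutant and 1, 3 and 3 reads in wild-type columns. MED21 gene counts did not pass the test in any line.

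**Figure D5:**
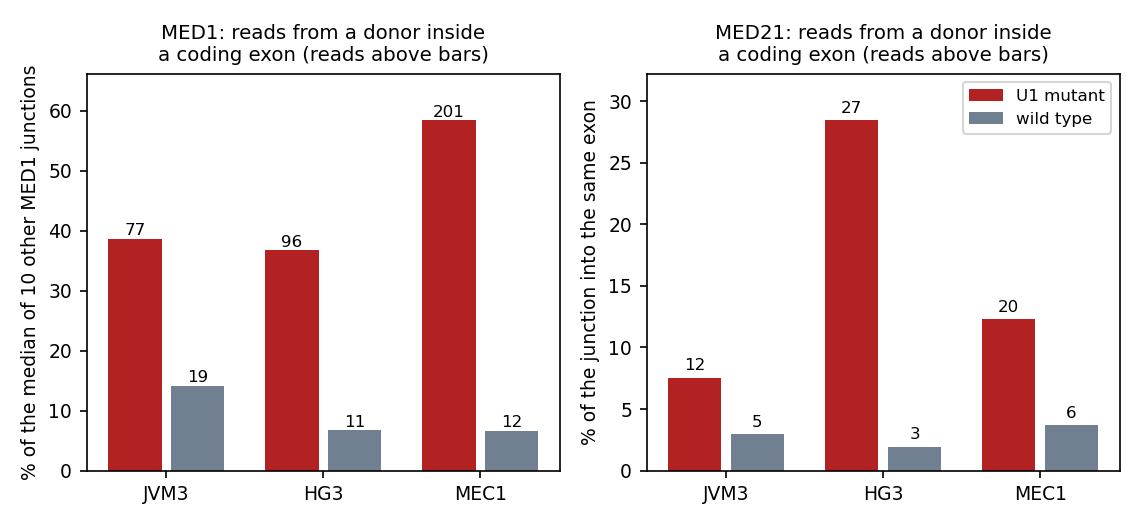
Reads from a donor inside a coding exon of MED1 (left, as a percentage of the median of 10 other MED1 junctions) and MED21 (right, as a percentage of the junction into the same exon), mutant (red) left of wild type (grey), with read numbers above the bars. MED1 stands at 38.6%, 36.7% and 58.3% in mutant columns and at 14.1%, 6.75% and 6.65% in wild-type columns.

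In wild-type cells, few Mediator genes differed 2-fold between lines. Wild-type lines were compared in pairs, and a gene was called with an adjusted p under 0.05 and a 2-fold difference. Between HG3 and JVM3, 0 of 33 were called (28.4% of all genes), between MEC1 and JVM3 3 (38.5% of all genes), and between HG3 and MEC1 4 (33.3% of all genes). These were 4 genes in all, where 50.7% of all genes were called in at least 1 pair. MED13L was higher in MEC1, with 55.0 and 51.1 CPM against 14.5 and 13.3 CPM in JVM3 (log2 change 1.76) and 12.8 and 12.7 CPM in HG3. MED12L, also among the 4, passed the filter on low counts through its MEC1 libraries, which fixed its direction. MED23, a tail subunit, stood at 69.5 and 70.4 CPM in HG3, against 35.5 and 36.4 CPM in MEC1 (log2 change 1.04), and it was also lower in MEC1 than in JVM3 (log2 change -1.09). CDK19 was higher in HG3 than in MEC1 (log2 change 1.02). These tests rest on technical replicates.

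Of 59 other genes of RNA polymerase II transcription (polymerase subunits, general factors, TAFs and elongation factors), 1 rose and 0 fell across lines, where 3.69% of all genes were called. It was ELL, an elongation factor, at 36.4, 42.2 and 42.7 CPM in mutant JVM3, HG3 and MEC1, against 28.7, 34.3 and 30.0 CPM in wild-type cells, a log2 change of 0.37 ± 0.04 whose adjusted p of 0.05 lay at the threshold. In this list 47 of 59 log2 changes were positive, with a median of 0.13, beside 21 of 33 and 0.04 for the Mediator genes and -0.01 for all genes tested. Whether 1 list differs from another was not tested.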

How the data were processed

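Libraries were stranded and ribodepleted, from Trizol-extracted total RNA, per the labels' protocols. The submitters' processing notes name STAR 2.5.4b, HTSeq 0.9.1, hg19 and GRCh37. The deposited tables hold raw counts per gene for 12 libraries and raw junction counts in 6 columns, which carry no replicate number and were taken as pooled. Annotation release and strand setting are not stated. Gene symbols came from a name table (51996 of 57820 IDs matched). The members and lists were chosen with earlier results of these data known.

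Genes were tested with edgeR 4.0.16 in R 4.3.3 (quasi-likelihood F-test, robust, TMM, filterByExpr, Benjamini-Hochberg over all genes tested, adjusted p under 0.05), with replicates summed and the line as a block across lines, and 12 libraries as 6 groups within and between lines. The series calls the replicates technical: p-values within 1 line cover technical spread only. Replicates of a group differed beyond counting noise (mean chi-square per gene 2.14 to 4.80 at 1 degree of freedom).

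Genes were placed in the hg19 junction table by intron lengths and spacing matched exactly to GENCODE 29, and no coordinates were converted. At least 2 introns and 2 times the next best place were needed. Against a wrong chromosome, 1 gene was placed. Junction positions are the exon bases on either side of the intron. Shares were tested with diffSpliceDGE on junctions of at least 20 reads (call: adjusted p under 0.05, 5 points, 1 sign in all lines) and levels with edgeR. The level test, and its left-out lines, were added after seeing the data. DESeq2 1.42.0, no filter, a replicate block, unsummed libraries, left-out replicates and lines, limma 3.58.1, a minimum of 50 reads and of 10 points were alternatives. The tests were run on simulated data whose changes were the same in every line, which does not cover responses that differ between lines. Genes with values per library were those called across lines, those called in a line with a log2 change of at least 0.5, the extremes of each module, MED14 and the kinase module paralogues. Of the extremes, MED26 and MED20 were given as log2 changes alone. The other members named were chosen after their values were seen.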

Additional observations from a re-analysis of the deposited data

Results flagged for a closer look

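The mutant over wild-type change differed between lines in 19 of 33 Mediator genes (edgeR test of the interaction of line and U1 status, adjusted p under 0.05), where 32% of all genes tested did. These tests rest on technical replicates.

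The adjusted p for a difference between lines was 7.97e-14 for MED13L, with log2 changes of 0.25, 1.53 and 0.93 in JVM3, HG3 and MEC1. It was 1.47e-07 for MED15, 2.00e-06 for MED12 and 3.18e-05 for MED25, all of which had their smallest change in JVM3 and their largest in MEC1. For MED16 it was 1.62e-07, with the largest fall in HG3, and for MED14 it was 1.59e-06, with the largest fall in MEC1.

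For MED22 the value was 6.17e-05 (log2 changes -0.07, -0.08 and 0.26) and for MED23 7.38e-05 (0.13, 0.43 and 0.10). For MED29 it was 0.00113 (0.25, -0.11 and -0.06), for CCNC 0.00162 (-0.02, -0.20 and -0.33) and for MED18 0.00296 (0.06, -0.21 and -0.36). The value of 0.00335 for MED12L rests on 0 to 9 counts per group in JVM3 and HG3. For CDK8 it was 0.00697, for MED1 0.010003, for MED8 0.0192, for CDK19 0.0212, for MED11 0.0279, for MED20 0.0394 and for MED24 0.0424.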

How the results depend on the processing

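Across lines, 3 Mediator genes were called in the analysis given above, 5 with DESeq2, 8 with no filter on low counts, 19 with the 12 libraries unsummed and the line as a block, and 17 with a replicate block. The unsummed fits treat technical replicates as independent. Whether the replicate numbers pair the libraries was not settled (correlations of deviations 0.0171, 0.101 and 0.187 in JVM3, HG3 and MEC1), and the block moved no count within or between lines by over 1.5 times. The count was 2 without JVM3, 0 without HG3 and 0 without MEC1, with 2 lines left in each group, and 3 to 4 with 1 replicate left out. MED14, MED16 and MED17 kept their sign under all 19 alternatives each, with log2 changes of -0.54 to -0.31, -0.97 to -0.58 and 0.35 to 0.42, but lost their calls in 3, 2 and 3 of them (highest adjusted p 0.140, 0.112 and 0.127), all with a line left out. MED13L and MED28 gained calls with DESeq2, with no filter and in the unsummed fits. MED28 was also called with 1 replicate left out in 5 of 12 cases (adjusted p 0.0445 to 0.0498) and MED13L in 1 (0.0387). For the other transcription genes, 1 was called, against 3 with DESeq2, 3 with no filter, 31 unsummed, 21 with the block, 0 without JVM3, HG3 or MEC1, and 0 to 2 with 1 replicate left out. The log2 change of MED13, 0.01 across lines, was at -0.0157 with no filter, -0.00699 without HG3 and -0.0122 to 0.0170 with 1 replicate left out, and that of CDK8, at 0.03, was at -0.0545 without MEC1, none of them past the threshold. Of Mediator junctions, 2 were called by shared acceptor, against 1 with a minimum of 50 reads, 0 without JVM3, 1 without HG3, 0 without MEC1, 43 by level in place of share and 2 with limma, where CDK8 was not among them (adjusted p = 0.0621). Causes of these shifts were not tested. Within lines, leaving out 1 replicate gave 10 to 13 calls in JVM3, 16 to 22 in HG3 and 17 to 21 in MEC1. Reads at single junctions, often under 100 per column, limit the precision of shares.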
